A study of Bos taurus with 6 samples.

Results

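Genes of fat storage and lipid uptake were examined in cattle liver: FABP4 (ENSBTAG00000037526), ADIPOQ (ENSBTAG00000019813) and LPL (ENSBTAG00000012855). They were chosen by identifier, with symbols from the Ensembl cattle annotation, because the deposited table carries none. Rows for 2 of the 3 identifiers, FABP4 and LPL, were found among the 23833 genes of the table. The row for ADIPOQ was absent from it, so adiponectin was not analysed here. The libraries came from liver biopsies of Angus x Simmental cattle: 3 libraries from cattle given rumen-protected niacin, a vitamin B3 preparation made to pass the rumen, and 3 from control cattle. No label says in words that each library is a separate animal. All animals had free access to Bermudagrass hay and received each day 1.61 kg of tall fescue seed without endophyte, 1.61 kg of a corn and soybean meal pellet and 0.1 kg of molasses. The niacin dose, the duration and the animals' age are not stated in the sources used here. The comparison addressed how niacin changed hepatic gene expression.

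FABP4 encodes a small carrier protein that binds fatty acids inside adipocytes, and it is also made by macrophages and capillary endothelium. LPL encodes lipoprotein lipase, a secreted enzyme that is anchored to the capillary wall and releases fatty acids from the triglycerides of circulating lipoproteins. Its main sites are adipose tissue and muscle, and in adult liver it is usually low. ADIPOQ encodes adiponectin, a hormone secreted almost entirely by adipocytes. Adipocytes are rich in all of these transcripts. Niacin is known for restraining the release of fatty acids from adipocytes.

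Library totals were 54478409, 111478194 and 91216378 counts in niacin replicates 1, 2 and 3, and 57315443, 48593701 and 48670988 counts in control replicates 1, 2 and 3. Levels are given as CPM, counts per 1e+06 counts of a library after TMM scaling, which adjusts each total for differences in composition. Nothing in the table pairs other identifiers with symbols, so hepatocyte markers, other adipocyte genes and markers of other cell types were not analysed here. In tissue samples, fewer cells of a type and less RNA per cell cannot be told apart.

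Neither FABP4 nor LPL differed between niacin and control liver beyond the spread between libraries. FABP4 ranged from 0.0215 to 2.17 CPM with niacin and from 0.0428 to 0.419 CPM in controls, and its estimated rise with niacin rested on 1 library. LPL averaged a lower level with niacin, but the levels of the groups overlapped. At an adjusted p under 0.05, 0 of the 2 genes were called by edgeR's quasi-likelihood test, where 17.7% of 14839 tested genes were called, 14.2% as higher and 3.46% as lower with niacin. The unadjusted p of edgeR's test was 0.200 for each gene, and 47.4% of tested genes had a smaller p than each. DESeq2 and limma-voom called 0 of 2 as well at an adjusted p under 0.05. Over all tested genes, DESeq2 called 22.1% and limma-voom 16.7%.

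FABP4, the intracellular fatty acid carrier, had 22, 229 and 2 counts in niacin replicates 1, 2 and 3, and 21, 2 and 23 counts in control replicates 1, 2 and 3. On the CPM scale these were 0.40, 2.17 and 0.0215 CPM with niacin and 0.390, 0.0428 and 0.419 CPM in controls. Niacin replicate 2, the deepest library, was the highest of all 6, while niacin replicate 3 and control replicate 2, at 2 counts each, were the lowest and could not be ordered at this depth. The groups overlapped. Niacin replicate 1 lay at the level of control replicates 1 and 3. Between the highest and the lowest library of a group the level differed 101-fold with niacin and 9.80-fold in controls.

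With each count taken as independent, that range was wider than counting error in both groups. The exact 95% Poisson interval was 1.90 to 2.47 CPM in niacin replicate 2 and 0.251 to 0.605 CPM in niacin replicate 1. In niacin replicate 3 it was 0.00260 to 0.0776 CPM. The 3 niacin intervals did not overlap each other. Among controls, the interval of 0.00518 to 0.154 CPM in replicate 2 lay under those of replicate 1 (0.241 to 0.595 CPM) and replicate 3 (0.266 to 0.629 CPM). These intervals cover counting error only and take each count as independent. Among counts from 1 to 50, 54.8% to 59.7% were even in the 6 libraries, and whether both mates of a pair were counted is not given in the sources used here. Counting both mates would make these intervals too narrow. Whether the control intervals would then still lie apart was not tested.

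**Figure D1:**
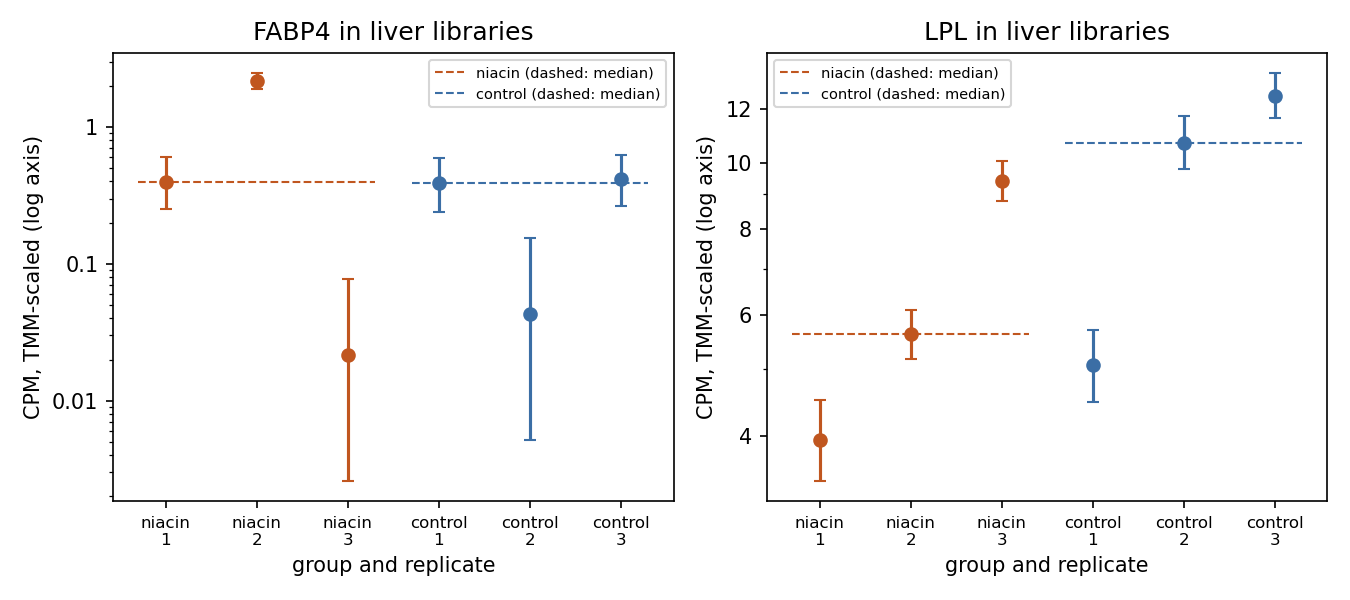
TMM-scaled CPM (log axes) of FABP4 (left) and LPL (right) in each library, with niacin replicates left of control replicates. Points are single libraries, vertical bars are exact 95% Poisson intervals of the count, and dashed lines are group medians. FABP4 medians are 0.40 CPM with niacin and 0.390 CPM in controls, while LPL medians are 5.62 CPM with niacin and 10.7 CPM in controls.

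Mean FABP4 was 0.863 ± 1.15 CPM in niacin libraries and 0.284 ± 0.209 CPM in control libraries (SD, n = 3 each). The median was 0.40 CPM with niacin and 0.390 CPM in controls, so the group means and the group medians gave different pictures. The log2 fold, niacin over control, was 1.60 ± 1.18 (SE), and its 95% interval ran from -0.96 to 4.15 (edgeR adjusted p = 0.422). As a fold, the interval runs from 0.514 to 17.8, and a fall of up to 1.94-fold, no change and a large rise all lie within it. Without niacin replicate 2 the log2 fold reversed to -0.51 (edgeR adjusted p = 0.882). It was 0.45 with limma-voom, which averages log values (limma-voom adjusted p = 0.880). In an edgeR fit with the closing letter of the sample code as a covariate it was 0.58 (edgeR adjusted p = 0.850). That letter, of unstated meaning, is F in niacin replicate 2 and control replicate 2 and M in all other libraries. The F libraries had 229 and 2 FABP4 counts, respectively.

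FABP4 was among the more variable genes of its abundance. Its within-group SD of log2 CPM, pooled over both groups, was 2.2. The median was 0.80 for the 2428 tested genes whose mean CPM lay within 2-fold of its own, and 99.1% of them varied less. Of those genes, 11.4% were called between niacin and control. FABP4 stood above 1.81% to 43.2% of the genes detected in a library, lowest in control replicate 2 and highest in niacin replicate 2. In the RefSeq gene order (assembly ARS-UCD2.0) its nearest protein-coding neighbours are FABP5, PMP2 and FABP9 on one side and FABP12 on the other, members of the same protein family. How reads that match several of these genes were counted is not given in the sources used here.

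**Figure D2:**
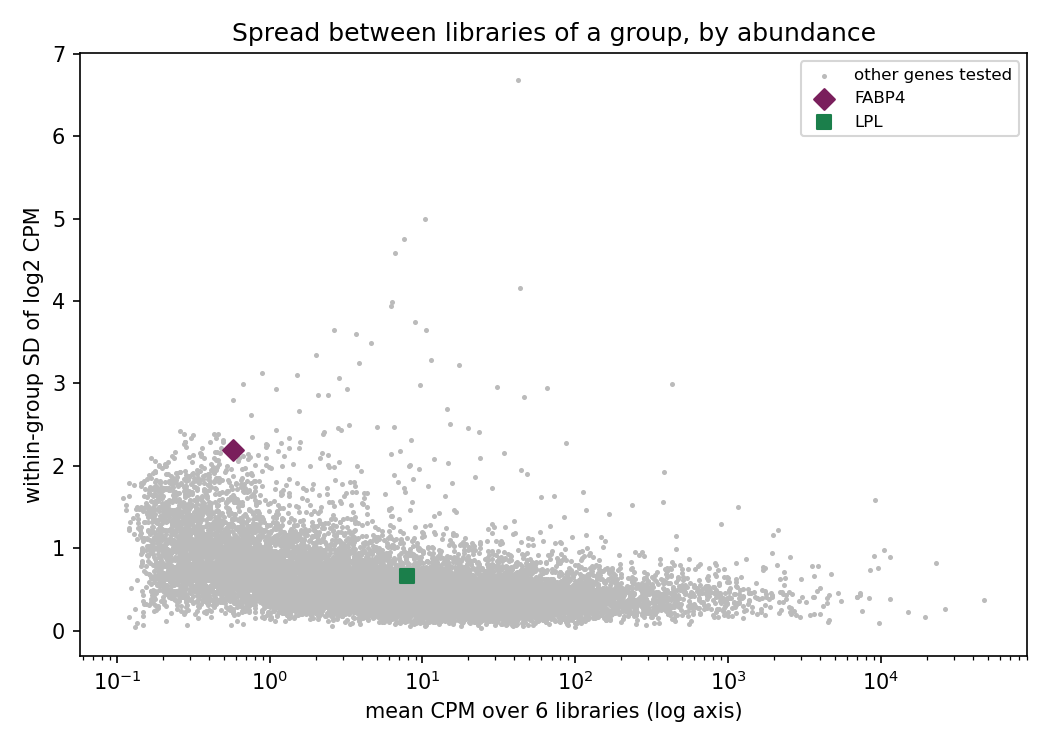
Within-group SD of log2 CPM (vertical) against mean CPM over the 6 libraries (log axis) for all tested genes, with FABP4 as a diamond and LPL as a square. FABP4, at an SD of 2.2, lies near the top of the cloud at its abundance, and LPL, at 0.66, lies within the cloud.

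LPL, the lipase that acts on circulating triglycerides, had 217, 594 and 877 counts in niacin replicates 1, 2 and 3, and 273, 501 and 688 counts in control replicates 1, 2 and 3. On the CPM scale these were 3.94, 5.62 and 9.42 CPM with niacin and 5.06, 10.7 and 12.5 CPM in controls. The 2 highest libraries were controls and the lowest was a niacin library, but control replicate 1 lay under niacin replicates 2 and 3, so the groups overlapped. FABP4 overlapped too, and 34.4% of all tested genes had groups that did not overlap. Neighbours in the order of LPL levels whose exact 95% Poisson intervals overlapped were niacin replicate 1 (3.44 to 4.5 CPM) and control replicate 1 (4.48 to 5.70 CPM), control replicate 1 and niacin replicate 2 (5.18 to 6.09 CPM), niacin replicate 3 (8.80 to 10.1 CPM) and control replicate 2 (9.79 to 11.7 CPM), and control replicates 2 and 3 (11.6 to 13.5 CPM).

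Mean LPL was 6.33 ± 2.80 CPM in niacin libraries and 9.44 ± 3.90 CPM in control libraries (SD, n = 3 each). The log2 fold, niacin over control, was -0.58 ± 0.43 (SE), and its 95% interval ran from -1.49 to 0.34 (edgeR adjusted p = 0.422). As a fold the estimate was 0.671, with an interval from 0.357 to 1.26, so a fall of more than 2.80-fold or a rise of more than 1.26-fold lies outside it. The largest fall was estimated without niacin replicate 3, at a log2 fold of -1.01 (edgeR adjusted p = 0.114, unadjusted p = 0.0395). That library had the highest LPL level of the niacin group.

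LPL was a mid-abundance transcript in these libraries. It stood above 49.8% to 68.9% of the genes detected in a library, lowest in niacin replicate 1 and highest in control replicate 3. Its within-group SD of log2 CPM was 0.66, against a median of 0.46 for 3734 tested genes of like mean CPM, of which 82.0% varied less and 19.0% were called. Within a group the highest library was 2.39-fold above the lowest with niacin and 2.48-fold in controls. Over all tested genes the median log2 fold was 0.07, with quartiles of -0.44 and 0.83. The log2 fold of LPL lay above that of 19.0% of tested genes and that of FABP4 above 87.2%.

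**Figure D3:**
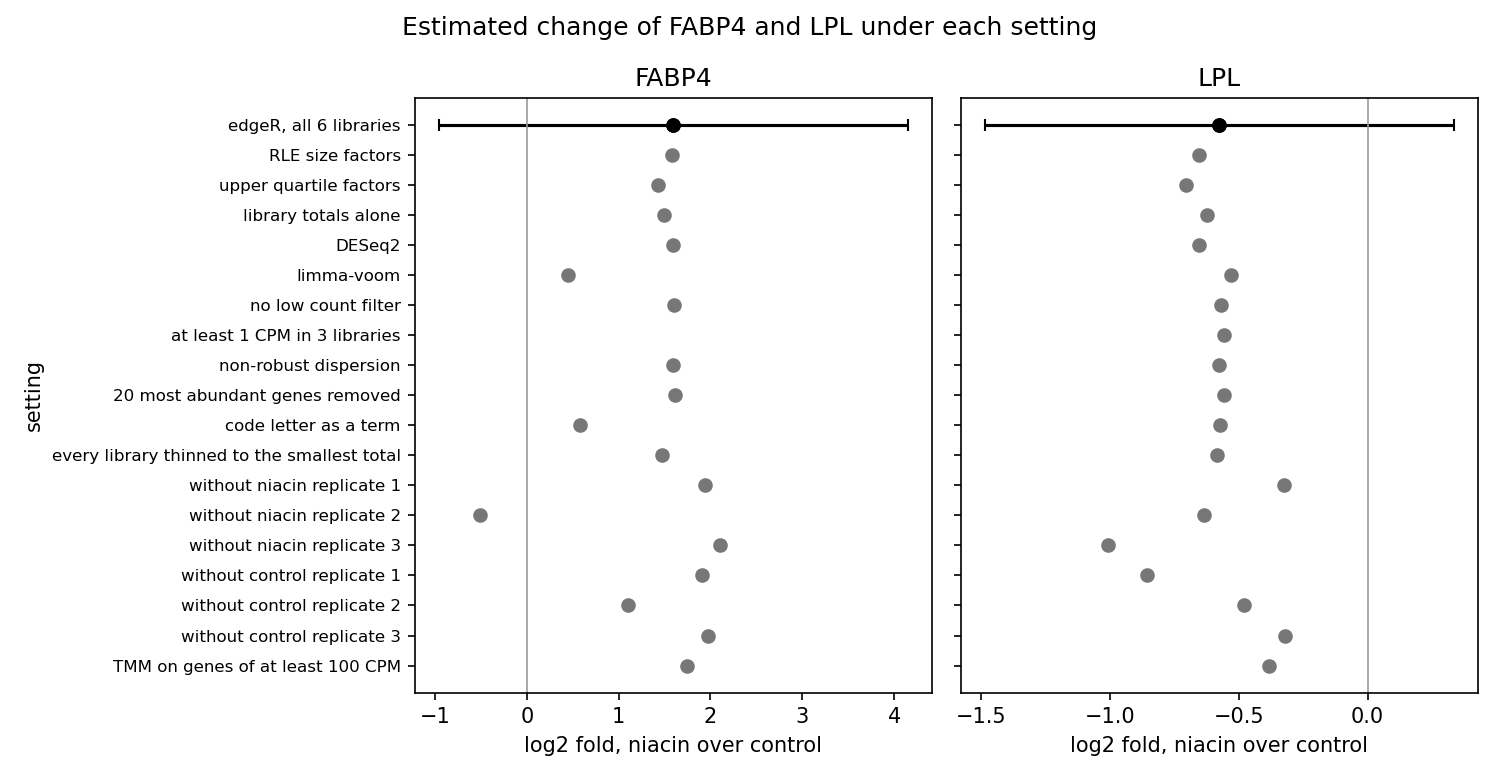
Log2 fold of niacin over control (horizontal) for FABP4 (left) and LPL (right) under each processing setting (vertical), with the 95% interval drawn for the edgeR fit on all 6 libraries. FABP4 falls below 0 without niacin replicate 2 and has no value under the filter of 1 CPM in 3 libraries, while all LPL points lie below 0, between -1.01 and -0.32.

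FABP4 and LPL did not keep 1 ratio across the libraries. LPL counts were 9.86, 2.59 and 438.5 times the FABP4 counts in niacin replicates 1, 2 and 3, and 13.0, 250.5 and 29.9 times in control replicates 1, 2 and 3. The 2 libraries where FABP4 was nearly absent, niacin replicate 3 and control replicate 2, held the third and the second highest LPL levels. The exact (Clopper-Pearson) 95% interval of the ratio was 2.22 to 3.03 in niacin replicate 2 and 121 to 3627 in niacin replicate 3, and between these it was 6.35 to 16.1 in niacin replicate 1. Such ratios do not depend on how the libraries are scaled. Between the groups, the mean log2 ratio (0.5 added to each count) was 4.37 ± 3.67 in niacin libraries and 5.40 ± 2.04 in control libraries (SD, n = 3 each). The difference of -1.03 did not pass the two-sided exact permutation test (p = 0.7), which cannot go below 0.1 with 3 libraries against 3. Its sign rested on single libraries: it was 0.47 without niacin replicate 2 and 0.10 without control replicate 2, and -3.07 without niacin replicate 3. Only 1 of the planned ratios could be formed, since ADIPOQ had no row.

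The profiles of both genes over the 6 libraries were also set against all other tested genes, by the root mean square difference of log2 CPM after each gene was centred on its own mean. FABP4 and LPL lay 2.2 apart on this measure. Among tested genes, 81.0% were nearer to FABP4 than LPL was, and 96.3% were nearer to LPL than FABP4 was. Profiles were not scaled to a common spread, so a gene as variable as FABP4 lies far from most genes. These shares therefore cannot separate a difference in pattern from the wide spread of FABP4. The gene nearest to FABP4 was ENSBTAG00000016414, at a distance of 0.42, where the median over tested genes was 1.95. Its levels were 0.345, 1.12 and 0.0107 CPM in niacin replicates 1, 2 and 3, and 0.148, 0 and 0.255 CPM in control replicates 1, 2 and 3. The count of 0 in control replicate 2 allows up to 0.0641 CPM (3 counts). Niacin replicate 3 held 1 count of this gene, so its match to FABP4 at the low end rests on very few counts. The gene nearest to LPL was ENSBTAG00000013981, at a distance of 0.12, where the median was 0.81. It had 16.9, 21.8 and 34.3 CPM in niacin replicates 1, 2 and 3, and 23.4, 41.6 and 45.3 CPM in control replicates 1, 2 and 3, with control replicate 3 the highest and niacin replicate 1 the lowest. Both genes were picked for their likeness to FABP4 or LPL, so their order over the libraries follows from the choice and is no separate result. The table pairs neither identifier with a symbol.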

How the data were processed

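Per the labels' protocols, poly(A)-selected, strand-specific libraries were made from 1500 ng of total RNA and sequenced as 150-bp paired-end reads. The authors deposited unnormalized counts for each Ensembl gene, 1 column per sample. The submitters' processing notes name, with no roles, HTSeq, DESeq2, TopHat2 2.1.1, Trimmomatic 0.36, bedtools 2.30.0, Cufflinks 2.2.1 and FastQC 11.5. The genome build, annotation release and strand setting are not stated in the sources used here.

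The members and the gene lists were chosen with earlier results of these data known. The lists, which need symbols, could not be applied: 0 of 37063 genes in the RefSeq table used here carried an Ensembl identifier. Genes were filtered with filterByExpr (minimum count 10), scaled with TMM and compared with edgeR 4.0.16 in R 4.3.3 (quasi-likelihood F test with robust dispersion and group alone in the model), and p-values were adjusted by Benjamini-Hochberg over the 14839 genes tested. The test was checked on simulated data, with changes placed only in genes that averaged at least 1 CPM. FABP4 averaged less than 1 CPM in both groups, so the check did not cover a change at its level. The standard error is the log2 fold divided by the square root of F. Log2 CPM used a prior count of 2. Alternatives used DESeq2 1.42.0, limma 3.58.1, other scalings and filters, and each library left out. The genes given with values are the 2 members and the 1 gene nearest in profile to each. ADIPOQ and the RefSeq neighbours of FABP4 are named without values. Sample titles carry different codes, but no label says that these are separate animals, so p-values cover only the spread between the samples, which may be technical. Replicate numbers only name libraries.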

Additional observations from a re-analysis of the deposited data

How the results depend on the processing

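FABP4 was not called under any of 17 alternatives and LPL under none of 18, with edgeR, DESeq2 or limma adjusted p from 0.146 to 0.882 for FABP4 and from 0.114 to 0.778 for LPL. The log2 fold of FABP4 kept its sign under 16 of them, at 0.45 to 1.74 apart from the omission of libraries, and with each library left out it lay between -0.51 (niacin replicate 2 omitted, the only reversal) and 2.1 (niacin replicate 3 omitted). LPL kept its sign under all 18, at -0.71 to -0.38, and -1.01 to -0.32 with each library left out. TMM on genes of at least 100 CPM was chosen after seeing the data. A filter of 1 CPM in 3 libraries removed FABP4. The group difference in the log2 ratio of LPL to FABP4 ranged from -3.07, with niacin replicate 3 omitted, to 0.47, with niacin replicate 2 omitted, and was 0.10 without control replicate 2. With 1 added to every count it was -1.02. Genes called over the whole table numbered 2622 of 14839 tested in the main fit. They numbered from 2396 to 3283 under other settings. With 1 library left out they numbered from 1653 (niacin replicate 1 omitted) to 3549 (niacin replicate 3 omitted). Other filters and omitted libraries can change how many genes are tested, so these counts need not share 1 total. The causes of the differences between settings were not tested. Ratios with ADIPOQ and tests of gene lists were not run. No paired analysis was run because the labels state no pairing between niacin and control samples. Depth does not allow FABP4 in niacin replicate 3 and control replicate 2, at 2 counts each, to be ordered.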
